A study of Mus musculus with 6 samples.

Results

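Interferon-stimulated genes were followed in primary mouse lung fibroblasts (LFs) exposed to TGFβ. The set holds 45 genes, chosen by symbol among the 55364 genes of the count tables, and all 45 were matched. They are transcription factors of interferon signalling, sensors of viral nucleic acids, antiviral effectors and other genes whose transcription type I or type II interferon raises. The RNA came from 3 libraries labelled WT (wt LFs) and 3 labelled TKS5 KO, all from cultures kept for 24 h in serum-free medium with 10 ng/ml TGF-β1. LFs were isolated, per the methods of the study, from C57Bl6/J mice aged 8 to 10 weeks, and the second genotype, a knockout in the labels, is Tks5+/- there, with littermate controls. In the mutant alleles described there, a Cre under the CMV promoter, active in all tissues, had removed exon 11 of Sh3pxd2a, the gene of Tks5, a scaffold protein of podosomes. The libraries of this genotype are called KO-labelled here. No untreated library was compared, so every difference is between genotypes under TGFβ. Nothing in the labels says that the 3 replicates were separate cultures or animals. The study describes the samples in the figure that holds these data as biologically independent, without saying whether the unit was a culture or an animal. The p-values measure the spread between these libraries, which may be technical if the libraries were not separate.

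Type I interferons bind a receptor of most nucleated cells and type II interferon binds another, and both signal through Janus kinases to transcription factors of the STAT and IRF families. A complex that holds STAT2 and IRF9 binds the interferon-stimulated response element (ISRE), and STAT dimers bind the GAS element. Fibroblasts are a classical source of interferon β, and they hold low amounts of many interferon-stimulated transcripts without infection.

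The libraries held 1344507, 1647200 and 2369882 counts in wt LFs and 1979084, 2110954 and 2329155 counts in KO-labelled LFs. Values are CPM, the counts of a gene relative to the library total, after TMM scaling, which evens out differences of composition between libraries, and log2 fold changes are KO-labelled minus wt. A gene was called at an adjusted p under 0.05 (edgeR quasi-likelihood test, Benjamini-Hochberg over all genes tested) with a fold change of at least 1.2. Of 10346 genes tested, 4642 (44.9%) were called, 2286 lower (22.1%) and 2356 higher (22.8%), and the genes below are read against these shares. Sh3pxd2a itself had 205, 190 and 284 counts in wt and 238, 258 and 260 counts in KO-labelled LFs (adjusted p = 0.249). The reads come from the 3′ end of the transcripts, outside the deleted exon. Which mutant allele these LFs carried is not stated, nor whether it lowers such reads, so the counts do not check the label. By Q-RT-PCR the study reports lower Tks5 mRNA in Tks5+/- LFs. The fibroblast markers S100a4, Col1a1 (collagen I) and Vim (vimentin), the most abundant of the 8 in that list, were abundant in all 6 libraries, the lowest count being 1152 for Vim. Part of this list moved with the genotype too, with Thy1 (1.93), Vim (1.27) and Pdgfra (0.69) called higher on the log2 scale and Pdgfrb called lower (adjusted p = 0.00203). These are 3 of 8 higher and 1 of 8 lower, beside 22.8% and 22.1% of all tested genes. The other 4, S100a4, Col1a1, Col1a2 and Dcn, were not called. The 8 summed to 12674 to 14402 CPM in wt and to 16297 to 18992 CPM in KO-labelled LFs. Most of each sum was S100a4, with 8216 to 10764 CPM against 8304 to 13110 CPM (adjusted p = 0.250). The Y-linked gene Ddx3y also differed, with 146, 159 and 210 counts in wt and 25, 19 and 21 counts in KO-labelled LFs (log2 fold change -2.84, SE 0.25, adjusted p = 1.45e-08). Eif2s3y, also Y-linked, was not called, with 14, 13 and 35 against 26, 7 and 13 counts (log2 fold change -0.23, SE 0.43, adjusted p = 0.688). The Y-linked genes Uty and Kdm5d were too low to test, with 42 and 16 counts in all of wt and 15 and 13 in all of KO-labelled LFs. The part of the fibroblast markers or of Ddx3y in the results below was not tested. One wt library stood apart: the 12 tested macrophage markers and the 4 untested ones summed to 494, 425 and 2607 CPM in wt replicates 1, 2 and 3 and to 139 to 158 CPM in KO-labelled LFs. With 3 libraries against 3, an exact two-sided permutation test of a single gene cannot go below p = 0.1, so the calls rest on the fit across all genes.

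Across the set, 31 genes had enough counts to be tested and 14 did not. Of the 31, 25 were called lower in KO-labelled LFs, where 22.1% of all tested genes were. Ifi27 and Xaf1 were called higher, and Irf1, Ifit3, Isg20 and Irgm1 were not called. The median log2 fold change of the 31 genes was -1.39, beside -0.05 over all tested genes, and 29 of the 31 were negative. The 3 KO-labelled libraries lay below the 3 wt libraries for 26 of the 31 genes (27.6% of all tested genes) and above them for 2 (26.1%). A gene counted almost only in wt LFs can pass the filter through that group alone, so the count of 25 is a description of the genes that passed. Of the 18 genes with at least 10 counts in every library, 13 were called lower (22.9% of the genes so filtered) and 2 higher (23.9%), with a median of -0.89. With wt replicate 3 left out, 25 of 32 tested genes were called lower (18.0% of all genes) and 1 higher (20.2%).

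**Figure D1:**
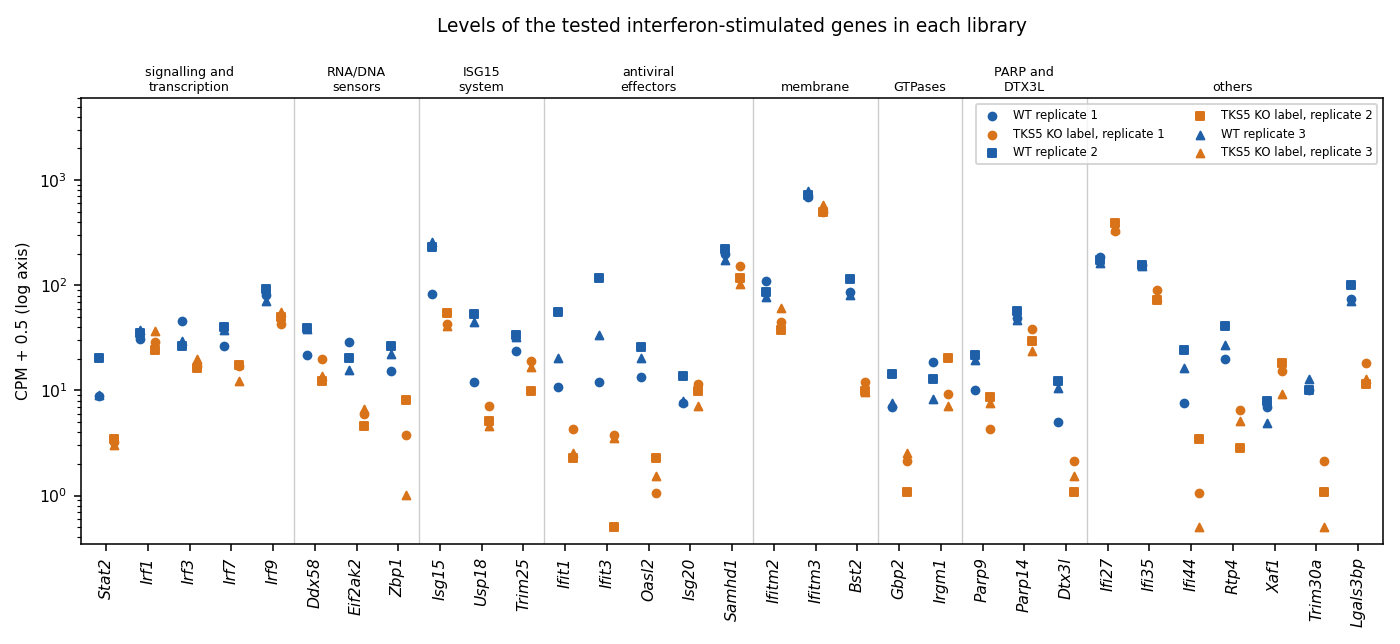
Levels of the 31 tested interferon-stimulated genes in each library, as CPM + 0.5 on a log axis, grouped by role; blue points are the 3 wt libraries, orange points the 3 KO-labelled libraries. Orange points lie below all blue points for 26 genes and above them for Ifi27 and Xaf1.

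Promoter sequence from RefSeq (GRCm38.p6) was available for 34 of the 45 genes, as windows of 300 bases with 250 before and 50 after a transcript start, and not for Dhx58, Zbp1, Usp18, Oas2, Mx1, Mx2, Iigp1, Parp9, Parp14, Ifi27 and Rtp4. The letters of the ISRE core, GAAA followed by any 2 bases and again GAAA, were searched on both strands, and overlapping matches were joined. They were found for 18 of the 34 genes (52.9%) and for 3.99% of 27025 genes with a window. By call, the match was present for 10 of 20 genes called lower, for 2 of 4 not called and for 6 of 9 not tested, and it was absent from the window of Xaf1, called higher. The GAS core, TTC and GAA around any 3 bases, was found for 11 of the 34 genes (32.4%) and for 9.55% of all. A match is a description of the letters and not a binding site. The following stretches of 30 bases show the match in genes whose values follow, each written 5′ to 3′ on the strand where the core reads GAAA at both ends, with the core or the joined cores in capitals.
Stat2, chr10:128270266-128270295, minus strand: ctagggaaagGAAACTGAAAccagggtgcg
Ddx58, chr4:40239804-40239833, plus strand: ctggccatagGAAATCGAAActgcctcagg
Eif2ak2, chr17:78882535-78882564, minus strand: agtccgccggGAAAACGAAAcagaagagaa
Isg15, chr4:156200871-156200900, minus strand: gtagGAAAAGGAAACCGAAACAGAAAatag
Ifit1, chr19:34640794-34640823, minus strand: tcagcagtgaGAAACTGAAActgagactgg
Ifit3, chr19:34583397-34583426, minus strand: gaggaaagtaGAAACTGAAAcagacttaaa
Bst2, chr8:71537580-71537609, minus strand: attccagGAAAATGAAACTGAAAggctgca
Gbp2, chr3:142620594-142620623, minus strand: ttaagacagtGAAAGTGAAActaaaagagt
Trim30a, chr7:104465210-104465239, plus strand: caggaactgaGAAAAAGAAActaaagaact
Irgm1, chr11:48871428-48871457, minus strand: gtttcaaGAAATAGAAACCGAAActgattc
In Isg15 the capitals join 3 overlapping matches, and in Bst2 and Irgm1 they join 2. Irgm1 carries such a stretch and was not called, while Lgals3bp and Oasl2, both called lower, had windows without a match.

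Several of the genes lie in clusters of related genes in GRCm38. Ifit2 (chr19:34550694-34576419), Ifit3 (chr19:34583531-34588731) and Ifit1 (chr19:34640871-34650009) are neighbours on the plus strand of chromosome 19. Ifitm2 (chr7:140954837-140955987), Ifitm1 (chr7:140967221-140969825) and Ifitm3 (chr7:141009586-141010770) lie together on chromosome 7. Irf7 (chr7:141262706-141266481) lies farther along that chromosome, outside the Ifitm cluster. Parp14 (chr16:35832874-35871544), Dtx3l (chr16:35926511-35939151) and Parp9 (chr16:35938470-35972605) adjoin each other on chromosome 16, and Gbp7 (chr3:142530342-142550149), Gbp3 (chr3:142560026-142573209) and Gbp2 (chr3:142620602-142638008) on chromosome 3. In each of these clusters the tested genes had negative fold changes. Members that stand alone include Isg15 (chr4:156199424-156200818), Bst2 (chr8:71534255-71537456) and Stat2 (chr10:128270559-128292849).

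Of the 5 signalling and transcription factor genes, 4 were called lower in KO-labelled LFs. Stat2, which codes for the activating subunit of the ISRE-binding complex, had 8.37, 19.8 and 8.53 CPM in wt replicates 1 to 3 and 2.74, 2.93 and 2.56 CPM in KO-labelled replicates 1 to 3, with 12.2 ± 6.55 CPM against 2.74 ± 0.184 CPM (SD, n = 3). Its wt replicate 2 was more than 2-fold above the other two, yet the lowest wt library was 2.86-fold above the highest KO-labelled one (log2 fold change -2.13, SE 0.48, adjusted p = 0.00113). The KO-labelled libraries held only 5 counts of Stat2 each, so their SD and this margin are imprecise. Irf9, the DNA-binding subunit of that complex, had 80.5, 92.6 and 69.7 CPM in wt and 42.8, 49.7 and 55.8 CPM in KO-labelled LFs, and the groups did not overlap (log2 fold change -0.71, SE 0.22, adjusted p = 0.0111). Irf7, an amplifier of interferon α transcription that is itself interferon-stimulated, had 25.7, 39.6 and 36.7 CPM against 16.5, 17.0 and 11.8 CPM (log2 fold change -1.18, SE 0.28, adjusted p = 0.00160). At its 3′ end Irf7 overlaps Phrf1 on the other strand, and without a stated strand setting their reads cannot be told apart. Irf3, which is present before infection and starts interferon β transcription, had 45.1, 26.2 and 28.9 CPM against 16.5, 15.8 and 19.4 CPM, wt replicate 1 being the highest (log2 fold change -0.94, SE 0.28, adjusted p = 0.00948). Irf1, a target of interferon γ and of NF-κB, had 30.3, 34.8 and 37.1 CPM in wt and 28.5, 24.0 and 36.3 CPM in KO-labelled LFs, and these overlapped (log2 fold change -0.20, SE 0.25, adjusted p = 0.530). The call of Irf9 was lost without wt replicate 2 (adjusted p = 0.0758) or KO-labelled replicate 1 (adjusted p = 0.0585), and that of Irf3 without wt replicate 1 (adjusted p = 0.0825).

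All 3 tested sensors were called lower. Ddx58 (RIG-I), which detects viral RNA with a 5′ triphosphate, had 21.2, 38.5 and 37.8 CPM in wt and 19.2, 11.7 and 13.3 CPM in KO-labelled LFs, and wt replicate 1 came within 1.11-fold of the highest KO-labelled library (log2 fold change -1.15, SE 0.30, adjusted p = 0.00337). Eif2ak2 (PKR), the kinase that halts translation on double-stranded RNA, had 28.3, 19.8 and 15.2 CPM against 5.49, 4.10 and 6.14 CPM (log2 fold change -1.97, SE 0.37, adjusted p = 1.83e-04). Zbp1, a sensor of Z-form nucleic acids that triggers necroptosis, had 14.8, 26.2 and 21.9 CPM against 3.29, 7.61 and 0.512 CPM (log2 fold change -2.50, SE 0.49, adjusted p = 3.34e-04). For Eif2ak2 and Zbp1 every wt library was clear of every KO-labelled one, although the KO-labelled values of Zbp1 spread widely among themselves. Those values of Zbp1 rest on 6, 13 and 1 counts. The other RNA helicases of the family were too low to test: Ifih1 (MDA5) had 5, 13 and 15 counts in wt and 3, 1 and 2 counts in KO-labelled LFs. Dhx58 (LGP2) had 0, 4 and 5 counts against 1, 0 and 2 counts, a summed ratio of 2.69 at equal depth with a counting interval from 0.671 to 15.4, and it overlaps an antisense gene.

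The 3 genes of the ISG15 system were called lower. ISG15 is a ubiquitin-like protein that is attached to other proteins and secreted, USP18 removes it and restrains the type I receptor, and TRIM25 is a ubiquitin ligase that activates RIG-I. Isg15 had 81.7, 230.1 and 255 CPM in wt and 42.3, 54.4 and 40.4 CPM in KO-labelled LFs, with 189 ± 93.8 CPM against 45.7 ± 7.61 CPM (SD, n = 3; log2 fold change -2.06, SE 0.36, adjusted p = 6.36e-04). Wt replicate 1 was the low one, and it was still 1.50-fold above the highest KO-labelled library. Usp18 was likewise lowest of the wt libraries in replicate 1, with 11.6, 53.0 and 44.5 CPM in wt and 6.58, 4.68 and 4.09 CPM in KO-labelled LFs (log2 fold change -2.84, SE 0.49, adjusted p = 3.21e-04). Trim25 had 23.2, 33.2 and 31.5 CPM against 18.7, 9.36 and 16.4 CPM, and its call was lost without KO-labelled replicate 2 (log2 fold change -0.98, SE 0.30, adjusted p = 0.00972; adjusted p = 0.0652 without it) and with the length correction (log2 fold change -0.59, adjusted p = 0.111).

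Among the 11 antiviral effectors 5 were tested, and 3 of them were called lower. The IFIT proteins bind viral RNA that lacks host cap marks. Ifit1 had 10.3, 55.7 and 19.7 CPM in wt and 3.84, 1.76 and 2.05 CPM in KO-labelled LFs, with 28.5 ± 23.9 CPM against 2.55 ± 1.13 CPM (SD, n = 3; log2 fold change -3.45, SE 0.66, adjusted p = 0.00147). Its KO-labelled libraries held only 7, 3 and 4 counts. Ifit3 had 11.6, 116 and 33.0 CPM in wt and 3.29, 0 and 3.07 CPM in KO-labelled LFs. The groups of Ifit3 did not overlap, the wt libraries differed widely, and it was not called (log2 fold change -4.58, SE 1.36, 95% interval -8.25 to -0.91, adjusted p = 0.0547). It was called without wt replicate 1 (adjusted p = 0.00548), without wt replicate 2 (adjusted p = 2.97e-04) and with DESeq2 (adjusted p = 0.00227). Its last 500 transcript bases share 24.0% of their words of 31 bases with Ifit3b, a neighbouring copy, so reads may have been split between them. Ifit2 was too low to test, with 3, 3 and 11 counts in wt and 1, 3 and 0 counts in KO-labelled LFs.

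Oasl2, of the 2′-5′ oligoadenylate synthetase family that activates RNase L, had 12.9, 25.7 and 20.0 CPM in wt and 0.549, 1.76 and 1.02 CPM in KO-labelled LFs, which was the most negative fold change among the called genes of the set (log2 fold change -4.09, SE 0.51, adjusted p = 1.47e-06). The lowest wt library was 7.33-fold above the highest KO-labelled one. Both values rest on 1, 3 and 2 KO-labelled counts and are imprecise. Samhd1, which depletes the nucleotides that reverse transcription needs, had 198, 219.9 and 174 CPM against 152, 116 and 102 CPM, a smaller difference without overlap (log2 fold change -0.67, SE 0.21, adjusted p = 0.0120). Its call was lost without wt replicate 2 (adjusted p = 0.0732) and without KO-labelled replicate 3 (adjusted p = 0.0884). Isg20, an RNA exonuclease, was not called (log2 fold change -0.04, SE 0.40, adjusted p = 0.938), and its libraries overlapped at 7.08, 13.4 and 7.42 CPM in wt and 11.0, 9.36 and 6.65 CPM in KO-labelled LFs. The remaining effectors sat at or near the floor of detection, which at 3 counts per library was 1.11 to 1.93 CPM. Oas2 had 0, 8 and 1 counts in wt and none in KO-labelled LFs, so nearly all its wt counts came from replicate 2, the groups overlapped at 0, and no fold is given. Oas1a had 1 count in each wt library and none in KO-labelled LFs, both within that floor, and its last 500 transcript bases share 70.0% of their words of 31 bases with Oas1g. Rsad2 (viperin) had 2, 7 and 6 counts against 0, 2 and 0 counts, a summed ratio of 6.72 at equal depth with a counting interval from 1.56 to 60.6. Mx2 had 1, 2 and 3 counts against 1, 0 and 0 counts, a ratio of 5.38 with an interval from 0.653 to 247, and Mx1 had no count in any library. The floors and intervals cover counting error alone.

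The 3 tested membrane proteins were called lower, by unequal amounts. Bst2 (tetherin), which holds budding virus at the cell surface, had 85.0, 113 and 81.2 CPM in wt and 11.5, 9.36 and 9.21 CPM in KO-labelled LFs, with 93.2 ± 17.6 CPM against 10.0 ± 1.29 CPM (SD, n = 3; log2 fold change -3.21, SE 0.26, adjusted p = 6.54e-09). The spread within either group was small beside this gap, and the lowest wt library was 7.05-fold above the highest KO-labelled one. Ifitm2 and Ifitm3, which block the fusion of virus with endosomes, had smaller fold changes. Ifitm3 had 684, 721 and 796 CPM in wt and 493, 496 and 578 CPM in KO-labelled LFs, without overlap (log2 fold change -0.49, SE 0.20, adjusted p = 0.0474). Its call was lost when any 1 library was left out, with adjusted p from 0.0640 to 0.138. Ifitm2 had 109, 85.6 and 76.8 CPM against 43.9, 36.9 and 59.9 CPM (log2 fold change -0.94, SE 0.23, adjusted p = 0.00228), and its 3′ end overlaps and resembles other gene models of the locus, which makes the assignment of its reads uncertain. Ifitm1 was not tested, with 9, 9 and 6 counts in wt and 2, 0 and 0 counts in KO-labelled LFs, a summed ratio of 10.8 at equal depth with a counting interval from 2.67 to 93.9.

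The interferon-inducible GTPases, which attack the membranes around intracellular pathogens, were mostly too low to test. Gbp2 had 6.44, 13.9 and 7.04 CPM in wt and 1.65, 0.585 and 2.05 CPM in KO-labelled LFs and was called lower (log2 fold change -2.59, SE 0.56, adjusted p = 7.42e-04). Its KO-labelled libraries held only 3, 1 and 4 counts. Irgm1, a regulator of the family, overlapped between groups at 18.0, 12.3 and 7.79 CPM and 8.78, 19.9 and 6.65 CPM and was not called (log2 fold change -0.08, SE 0.41, adjusted p = 0.888). Of the untested members, Gbp3 had 3, 15 and 12 counts in wt and none in KO-labelled LFs, at least 8.96-fold lower there when 3 counts over the group are set in place of 0. Iigp1 had 5, 22 and 15 counts against 1, 2 and 1 counts, also without overlap in CPM. Gbp7 had 1, 9 and 12 counts against 0, 3 and 0 counts and Igtp had 1, 16 and 23 counts against 7, 2 and 1 counts, and both overlapped, wt replicate 1 holding a single count. Igtp also overlaps Irgm2 on the same strand.

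PARP9 and DTX3L form an ADP-ribosyltransferase and ubiquitin ligase pair, and PARP14 is a related ADP-ribosyltransferase; all 3 genes were called lower. Dtx3l had 4.51, 11.8 and 10.0 CPM in wt and 1.65, 0.585 and 1.02 CPM in KO-labelled LFs (log2 fold change -2.96, SE 0.59, adjusted p = 3.22e-04). Its KO-labelled libraries held only 3, 1 and 2 counts. Parp9 had 9.65, 21.4 and 18.9 CPM against 3.84, 8.19 and 7.16 CPM, wt replicate 1 lying 1.18-fold above the highest KO-labelled library (log2 fold change -1.39, SE 0.39, adjusted p = 0.00599). Parp14 had 48.3, 56.2 and 46.7 CPM against 37.9, 29.3 and 23.0 CPM, with little spread in wt (log2 fold change -0.75, SE 0.24, adjusted p = 0.0155). Its call was lost without wt replicate 2 (adjusted p = 0.0753) and without KO-labelled replicate 3 (adjusted p = 0.103), and with the length correction (log2 fold change -0.22, adjusted p = 0.491).

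Of the other genes, 5 of 7 tested were called lower and 2 higher. Lgals3bp, a secreted glycoprotein that binds galectins, had 74.0, 101 and 70.8 CPM in wt and 17.6, 11.1 and 12.3 CPM in KO-labelled LFs, with 82.0 ± 16.7 CPM against 13.7 ± 3.43 CPM (SD, n = 3; log2 fold change -2.58, SE 0.26, adjusted p = 1.18e-07). Ifi35 had the narrowest wt range of the 31 tested genes, 157, 156 and 151 CPM, against 90.5, 72.0 and 76.2 CPM (log2 fold change -0.96, SE 0.20, adjusted p = 5.71e-04). The lowest wt library was 4.03-fold above the highest KO-labelled one for Lgals3bp and 1.67-fold for Ifi35. Rtp4, a chaperone of cell surface receptors, had 19.3, 40.1 and 26.7 CPM against 6.04, 2.34 and 4.61 CPM (log2 fold change -2.71, SE 0.39, adjusted p = 7.34e-06). Ifi44 had 7.08, 23.5 and 15.9 CPM against 0.549, 2.93 and 0 CPM (log2 fold change -3.76, SE 0.66, adjusted p = 1.37e-04). Trim30a, a restrainer of Toll-like receptor signals, had 9.65, 9.63 and 12.2 CPM against 1.65, 0.585 and 0 CPM (log2 fold change -3.75, SE 0.63, adjusted p = 4.79e-05). Ifi44 and Trim30a had no count in KO-labelled replicate 3, and their fold changes rest on 1, 5 and 0 and 3, 1 and 0 KO-labelled counts. Cd274 (PD-L1) was not tested, with 3, 3 and 12 counts in wt and 2, 3 and 0 counts in KO-labelled LFs.

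The 2 genes called higher ran against the rest of the set. Ifi27, which codes for a small mitochondrial protein, had 185, 172 and 161 CPM in wt and 331, 393 and 342 CPM in KO-labelled LFs, with 173 ± 11.7 CPM against 355 ± 32.6 CPM (SD, n = 3; log2 fold change 1.04, SE 0.20, adjusted p = 1.92e-04). Its relative Ifi27l2a, outside the set, was called lower (log2 fold change -3.30, SE 0.46, adjusted p = 5.42e-06). Xaf1, which codes for an inhibitor of the apoptosis inhibitor XIAP, had 6.44, 7.49 and 4.45 CPM against 14.8, 17.6 and 8.70 CPM, from 10, 14 and 12 counts against 27, 30 and 17 counts (log2 fold change 1.17, SE 0.40, adjusted p = 0.0197). The call of Ifi27 was lost when fold changes were corrected for transcript length (log2 fold change 0.46, adjusted p = 0.0585) or for length and GC content (log2 fold change 0.36, adjusted p = 0.131). The call of Xaf1 was lost with library totals alone (adjusted p = 0.123), with the length and GC correction (adjusted p = 0.0895), without wt replicate 3 (adjusted p = 0.0953) or KO-labelled replicate 2 (adjusted p = 0.0904).

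**Figure D2:**
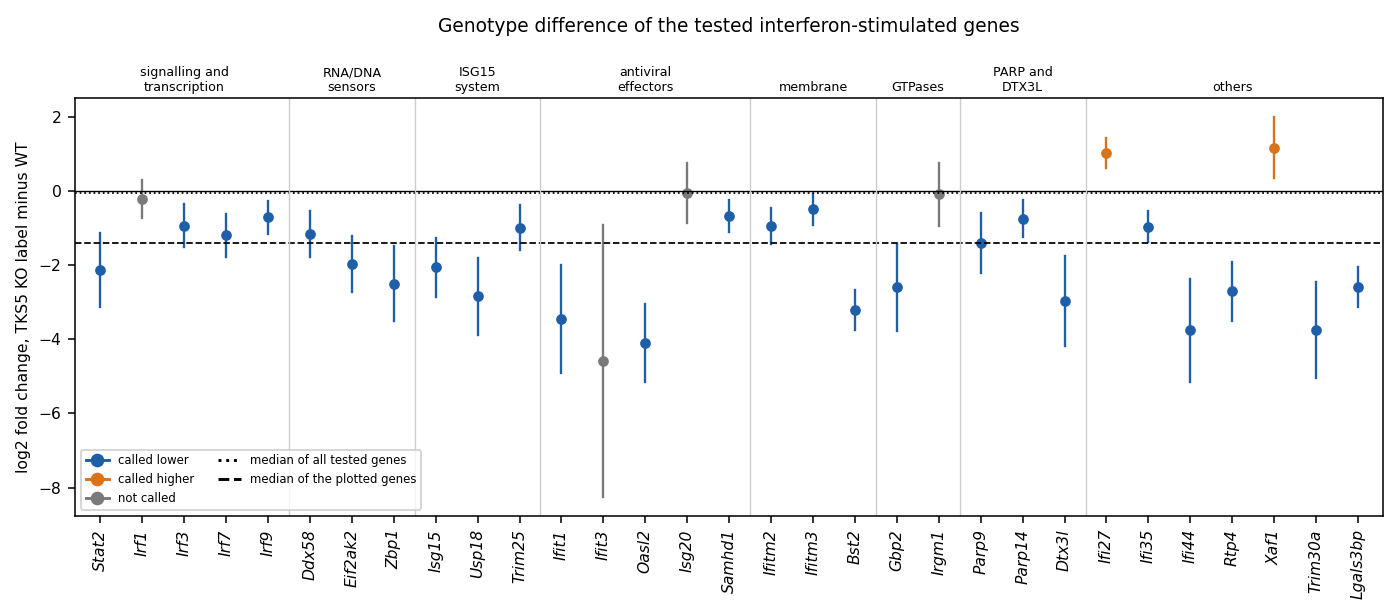
Log2 fold change (KO-labelled minus wt) of the 31 tested interferon-stimulated genes with its 95% interval, coloured by call; the dotted line is the median of all tested genes (-0.05) and the dashed line the median of the plotted genes (-1.39). The 25 genes called lower range from Ifitm3 (-0.49) to Oasl2 (-4.09), and Ifit3 has the widest interval.

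The wt libraries differed among themselves in these genes. Over the 31 tested genes the highest wt library exceeded the lowest by a median factor of 1.77, beside 1.43 over all genes with a count in every wt library, and by at least 2-fold for 11 of the 31 genes, beside 15.4% of all. In KO-labelled LFs the median factor was 1.62 for the 28 genes with a count in every library, beside 1.54 over all genes, and 9 of the 28 reached 2-fold, beside 23.0% of all. Among the 12 genes with a mean of at least 50 counts over the 6 libraries the median factor was 1.30, beside 1.33 over all such genes, and Isg15 and Ifit3 alone reached 2-fold (5.27% of all).

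The 5 tested genes with the widest wt range were Ifit3, Ifit1, Usp18, Ifi44 and Isg15. Wt replicate 2 exceeded wt replicate 1 by a factor of 9.98 for Ifit3 (95% counting interval 6.16 to 17.2), of 5.40 for Ifit1 (3.18 to 9.80), of 4.57 for Usp18 (2.75 to 8.03) and of 3.33 for Ifi44 (1.69 to 7.14). Isg15 was highest in wt replicate 3, by a factor of 3.13 over wt replicate 1 (2.58 to 3.81). The genes were picked for this range, so the intervals describe how precisely each ratio was counted and test nothing. The order of the higher libraries was not shared: wt replicate 2 exceeded wt replicate 3 by a factor of 3.50 for Ifit3 (2.72 to 4.54) and of 2.83 for Ifit1 (2.02 to 4.02), whereas for Isg15 the factor was 0.901 (0.797 to 1.02) and for Usp18 it was 1.19 (0.903 to 1.57).

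Wt replicate 1 was the lowest wt library for 18 of the 31 genes (35.9% of all genes) and wt replicate 2 the highest for 21 (29.6%). Relative to the wt mean, the median log2 difference of the 31 genes was -0.30, 0.29 and -0.10 in wt replicates 1 to 3, and -1.71, -1.35 and -1.43 in the KO-labelled replicates. By this median over the tested genes, the lowest wt library was above all KO-labelled libraries, and the genotype difference was larger than the range within wt. This describes the genes that passed the filter, which a gene can pass through its wt counts alone. The 18 genes with at least 10 counts in every library had a median log2 fold change of -0.89 between the genotypes. For single genes the margin varied, the lowest wt library being 1.11-fold above the highest KO-labelled one for Ddx58 and 7.33-fold for Oasl2. The margin of Oasl2 rests on 1, 3 and 2 KO-labelled counts.

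**Figure D3:**
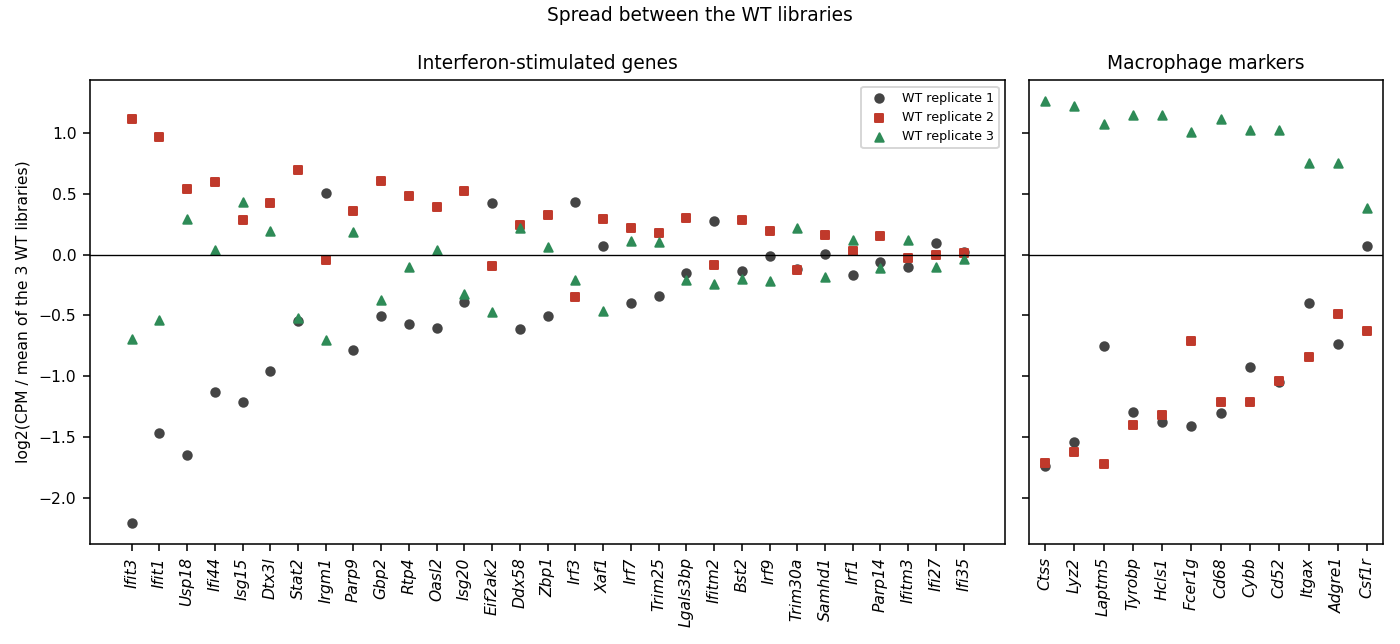
Log2 ratio of each wt library to the mean of the 3 wt libraries, for the 31 tested interferon-stimulated genes (left) and the 12 tested macrophage markers (right), each ordered by the ratio of highest to lowest wt library. Wt replicate 1 is lowest for 18 of the interferon-stimulated genes, and wt replicate 3 is the highest for every macrophage marker plotted.

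Markers of some other cell types moved with the genotype. Of the 16 macrophage markers 12 were tested, and all had their KO-labelled libraries below the wt libraries (27.6% of all tested genes). Of these, 8 were called lower and none higher. Over all tested genes 22.1% were called lower and 22.8% higher, and the marker lists below stand beside the same shares. The most abundant were Lyz2 (lysozyme) with 298, 337 and 3502 counts in wt and 139, 157 and 207 counts in KO-labelled LFs, Ctss (cathepsin S) with 71, 87 and 988 against 17, 29 and 28 counts, and Laptm5 with 108, 66 and 663 against 11, 6 and 5 counts. The defining markers Adgre1 (F4/80) and Ptprc (CD45) had 7, 10 and 34 and 4, 1 and 15 counts in wt LFs and were at 0 in all KO-labelled libraries. Wt replicate 3, whose macrophage sum was the highest, was the highest wt library for 4 of the 31 interferon-stimulated genes (35.6% of all genes) and the lowest for 11 (33.7%). The endothelial markers summed to 109 to 131 CPM in wt and 45.6 to 60.4 CPM in KO-labelled LFs, 3 of 4 tested being called lower, and Pecam1 (CD31) had 7, 10 and 21 counts in wt and none in KO-labelled LFs. Of the epithelial markers 3 were tested, with 2 called lower and 1 higher, and sums of 27.8 to 44.9 CPM and 29.7 to 62.0 CPM. The smooth muscle and pericyte markers had 2 called lower and 2 higher of 5 tested, and of the mesothelial markers the 1 tested was called lower. No T, NK or B cell marker was tested and 7 of 9 had no count. Of the 4 plasmacytoid dendritic cell markers, Siglech had no count, Ccr9 had 2, 0 and 1 counts in wt and none in KO-labelled LFs, and Irf8 had 5, 4 and 11 counts against 0, 0 and 1 counts, a summed ratio of 17.9 with a counting interval from 2.87 to 743. Tcf4, the 1 tested, was not called (log2 fold change -0.36, SE 0.22, adjusted p = 0.193). The part of these cells in the interferon-stimulated genes was not tested. The fit without wt replicate 3 cannot test it. The macrophage markers still summed to 494 and 425 CPM in wt replicates 1 and 2, against 139 to 158 CPM in KO-labelled LFs. In bulk RNA fewer cells of a type and less RNA per cell cannot be told apart.

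The genes that make or receive interferon were examined beside their targets. Of 27 genes of interferon ligands, receptors and signalling 12 were tested, with 2 called lower and 1 higher and a median log2 fold change of -0.05. All 11 ligands searched, among them Ifnb1, several Ifna genes and Ifng, had no count in any library, which allows up to 1.11 to 1.93 CPM a library. Jak2, a kinase of the interferon γ receptor, was called lower (log2 fold change -1.14, SE 0.32, adjusted p = 0.00533), as was Ptpn1, a phosphatase that acts on these kinases (log2 fold change -1.01, SE 0.22, adjusted p = 7.38e-04). Socs3, an inhibitor of cytokine receptors, was called higher, from 13, 17 and 11 counts in wt to 56, 45 and 26 counts in KO-labelled LFs (log2 fold change 1.75, SE 0.38, adjusted p = 8.02e-04). Tyk2, a kinase of the type I receptor (log2 fold change -0.99, SE 0.42, adjusted p = 0.0583), and Ifngr2 (log2 fold change 0.50, SE 0.23, adjusted p = 0.0873) were not called.

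Of 14 further genes of RNA and DNA sensing 8 were tested, 4 were called lower and none higher, with a median of -1.18. Tlr3, the endosomal receptor of double-stranded RNA, had 45, 93 and 105 counts in wt and 21, 3 and 17 counts in KO-labelled LFs (log2 fold change -2.40, SE 0.39, adjusted p = 6.78e-05). Traf3, an adaptor of these receptors (log2 fold change -1.63, SE 0.28, adjusted p = 6.55e-05), Trex1, a cytosolic DNA exonuclease (log2 fold change -1.47, SE 0.25, adjusted p = 8.04e-05), and Adar, which edits double-stranded RNA (log2 fold change -1.32, SE 0.34, adjusted p = 0.00334), were also called lower. Irf2 was not called (log2 fold change -1.05, SE 0.46, adjusted p = 0.0654).

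A list of 49 further interferon-stimulated genes outside the set gave 18 tested genes, 10 called lower and 1 higher, with a median of -0.99. Sp110, a nuclear body protein (log2 fold change -3.02, SE 0.33, adjusted p = 2.95e-07), Slfn5, of the Schlafen family (log2 fold change -3.16, SE 0.44, adjusted p = 5.42e-06), and Trim12c (log2 fold change -3.36, SE 0.55, adjusted p = 3.67e-05) were called lower with KO-labelled libraries at 9, 5 and 12, 6, 4 and 3 and 3, 1 and 2 counts. Lap3, a leucine aminopeptidase, was called higher (log2 fold change 1.27, SE 0.22, adjusted p = 5.60e-05). The shares called lower in these lists stand beside 22.1% of all tested genes.

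**Figure D4:**
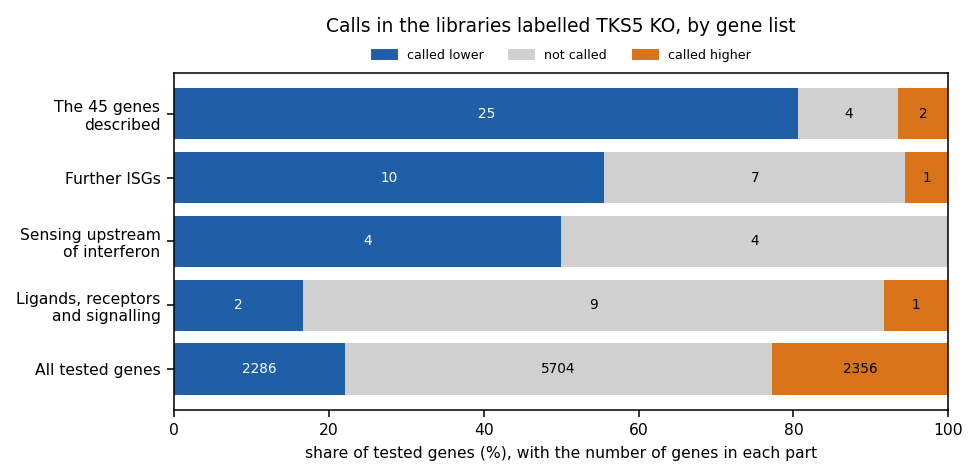
Share of tested genes called lower, not called and called higher in KO-labelled LFs, for the 45 interferon-stimulated genes described, the 3 other interferon lists and all tested genes, with the number of genes in each part. The share called lower falls from 25 of 31 tested genes in the first bar to 2 of 12 among ligands, receptors and signalling genes.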

How the data were processed

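Poly(A) RNA of mouse LFs, as 6 libraries, was sequenced from the 3′ end with the QuantSeq kit for Ion Torrent. The deposited values are raw counts per gene. The authors used Trim Galore for trimming, HISAT2 and then Bowtie2 for alignment (GRCm38), and metaseqR2 for counting over 3′ UTR regions, whose counts were added up for each gene; the strand setting is not given in the sources used here. The deposited normalized counts, which the authors made with EDASeq and rounded, were treated as a score and used in 1 alternative. Sorted by size, the values of that table are identical in all 6 libraries.

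The raw counts of 55364 genes, 55104 of them matched to symbols of the GRCm38 annotation, were tested with edgeR 4.0.16 under R 4.3.3, using filterByExpr, scaling by TMM and the quasi-likelihood F test in its robust form, between 3 wt and 3 KO-labelled libraries, without covariates. Benjamini-Hochberg adjustment ran over all 10346 genes tested, with thresholds of 0.05 for the adjusted p and 1.2 for the fold change. The study combined several tests; edgeR alone was used here. Totals of 1344507 to 2369882 counts leave genes of few counts imprecise. Counting intervals are exact 95% intervals of the ratio of 2 counts, and the floor is 3 counts. Python 3.11.15 with SciPy 1.17.1 computed ratios, motifs and figures. The fitting code was tested on simulated data. Alternatives were scalings, DESeq2 1.42.0, limma 3.58.1, filters, corrections for GC content and transcript length, a replicate block and leaving out each library.

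All 45 genes are accounted for, and values in each library are given for all 31 tested genes. Of the other interferon lists, up to 5 tested genes with the smallest adjusted p are named. Of the fibroblast and macrophage lists the 3 most abundant are named. Further markers and the Y-linked genes were added after their values were seen. Genes, lists and tests were chosen with earlier results of these data known. Untested members are given by their counts. Replicate numbers of the 2 groups did not pair the libraries: correlations of the same numbers' deviations from the group means were -0.00101, -0.0637 and 0.0820.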

Additional observations from a re-analysis of the deposited data

How the results depend on the processing

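Of the 25 genes called lower, 19 were called lower under every alternative that tested them, out of 20 alternatives, and all 25 kept their direction in each. With at least 10 counts in every library 13 of 18 genes were called lower (22.9% of all genes so filtered), and the median log2 fold change was -0.89. The other 13 of the 31 genes were no longer tested. The median was -2.07 without a filter, -1.82 with library totals alone and -1.64 with the length and GC correction. Scaling by library totals alone also moved the median of all genes to -0.47, with 3944 genes lower and 1362 higher, and gave 27 lower and 1 higher in the set. Genes called higher numbered 1 with the length correction and 0 with the length and GC correction. Leaving out 1 library at a time changed which genes were tested, 31 to 37 of the set. It gave 22 to 29 genes called lower (16.2 to 19.4% of all genes), 1 to 2 called higher and medians from -2.25 to -1.20. The highest count was 29 of 36 without wt replicate 1 and the lowest 22 of 31 without wt replicate 2. Irf9, Parp14 and Trim25 lost their calls under both length corrections, with log2 fold changes of -0.53, -0.22 and -0.59 under length alone, and Samhd1 lost its call under length alone (-0.49).

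Isg20 and Irgm1, both uncalled, changed sign. Isg20, from -0.21 to 0.30 with 1 library left out, was at 0.26 with the authors' normalized counts, 0.21 with the GC correction, 0.23 with the replicate block and GC correction, 0.30 without wt replicate 2 and 0.17 without KO-labelled replicate 3. Irgm1, from -0.65 to 0.25 with 1 library left out, was at 0.10 with the length correction, 0.24 without wt replicate 1, 0.14 without KO-labelled replicate 1 and 0.25 without KO-labelled replicate 3. The cause was not tested. The replicate block, whose numbers do not pair the libraries, gave 25 genes lower and 2 higher; Ifitm3 lost its call (adjusted p = 0.0503) and Ifit3 gained one (adjusted p = 0.0483). Low counts limit the precision of the 14 untested genes; without the filter Gbp3, Gbp7, Ifih1, Ifitm1, Igtp, Iigp1 and Oas2 were called lower, giving 31 of 44 genes (11.5% of all genes so tested).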
